A study of Mus musculus with 4 samples.

Results

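Interferon response genes were followed in single group 2 innate lymphoid cells (ILC2) sorted from mouse pancreas. The list holds 37 genes: interferon receptors, the transcription factors that relay the signal, and genes that interferons are known to induce. A gene was used where its symbol names a row of the deposited read table; 35 of the 37 did, out of 11352 gene rows, and Ifit3 and Ifi204 were not analysed here.

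The cells came from C57BL6J mice carrying KIKR, a fluorescent protein that violet light turns irreversibly from green to red. Red, photoconverted cells (KIKR-Red) therefore carried the converted protein, and green, non-photoconverted cells (KIKR-Green) the original form. Age, sex, feeding state, the site of the light exposure, the driver of KIKR and the animal behind each cell are not given in the labels used here. Cells were sorted one per well into 4 plates of 384 wells with their fluorescence recorded, and libraries were made by a CEL-seq2-based protocol, which counts the 3′ ends of polyadenylated RNA.

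Only plate 1 was used, because the row names of the other plates could not be relied on. Rows named as mitochondrial genes held 5.63% of the reads on plate 1 and at most 0.0531% on plates 2 to 4. Plate 1 held 12 photoconverted cells, 151 non-photoconverted cells and 221 wells with no recorded cell. Cells were kept where mitochondrial reads were under 25% and 500 genes or more had a read, which left 8 photoconverted and 98 non-photoconverted cells. All cells of a colour are 1 sample, so no test between the colours was possible. Shares carry exact Clopper-Pearson 95% intervals, which cover counting error over cells only. With 8 cells, 1 cell is 12.5 percentage points, and for a gene seen in 0 of 8 the limit, taken as 3 counts of the total in place of the exact interval, is 37.5%.

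Reads, not molecules, were counted, so a gene was called detected at 16 reads or more. Photoconverted cells had 56539 to 1677643 gene reads (median 540662) and non-photoconverted cells 17825 to 1274117 (median 187690). The medians of genes detected were 1834.5 and 863.5. Because the photoconverted cells were deeper, each was set beside the 5 non-photoconverted cells nearest to it in number of genes at 1 read or more. These depth-matched cells are 29 different cells used 40 times. Counted once each, they had medians of 365563 gene reads and 1507 genes detected. The deepest photoconverted cell had more reads than any non-photoconverted cell. Depth was therefore brought closer but not made equal. The ILC2 genes Gata3, Il1rl1 and Klrg1 all passed the detection level in 8 of 8 photoconverted cells. Among non-photoconverted cells the shares were 83.7%, 69.4% and 57.1%, and among depth-matched cells 95%, 87.5% and 87.5%. Of the other 5 ILC2 markers, Il5 and Areg were each detected in 7 photoconverted cells and Il2ra in 6. Il7r and Icos were each detected in 4 of 8, beside 87.5% and 70% of depth-matched cells. Of 46 markers of other cell types, 18 had a row, and no kept cell held more than 3 of them. Their summed level ran from 0 to 327 CPM (reads per 1e+06 gene reads of the cell) in photoconverted and from 0 to 3270 CPM in non-photoconverted cells. Of the T cell genes, Cd3e was detected in 0 of the 106 cells, Cd3g in 2 photoconverted and 9 non-photoconverted cells, and Cd3d in 1 and 2. Of the plasmacytoid dendritic cell genes, Siglech was detected in 0 of the 106 cells, and Ccr9 and Tcf4 in 0 photoconverted and in 7 and 2 non-photoconverted cells.

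Type I interferons bind the receptor pair IFNAR1 and IFNAR2, and Janus kinases then activate a complex that includes STAT2 and IRF9 and binds interferon-stimulated response elements in DNA. Interferon gamma binds IFNGR1 and IFNGR2 and induces IRF1 and families of GTPases that attack intracellular microbes. Both kinds of interferon are known to restrain the growth and cytokine output of ILC2.

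The response element is built from repeated GAAA units, and some of the detected members carry it just upstream of their start. The motif GAAA, any 2 bases and GAAA again, or its other-strand form TTTC, any 2 bases and TTTC, overlaps counted, was searched in the 250 bases before each RefSeq gene start (GRCm38.p6). Of the members, 29 matched the promoter table by symbol, and 10 of these (34.5%) held the motif, beside 936 of all 27025 genes (3.46%). These 10 were Ifi203, Gbp7, Gbp2, Isg15, Ifitm2, Irf2, Bst2, Stat2, Igtp and Ifit1. A match describes letters and is not evidence of binding. The stretches below are those of the most widely detected members that hold the motif outside any annotated exon, with the motif letters in capitals. Each is written 5′ to 3′ on the strand of its gene, with up to 50 bases on either side of the motif, and its first motif begins 53 (Gbp7), 78 (Isg15), 35 (Ifi203) or 130 bases (Bst2) before the gene start.
Gbp7, chr3:142530233-142530335, plus strand: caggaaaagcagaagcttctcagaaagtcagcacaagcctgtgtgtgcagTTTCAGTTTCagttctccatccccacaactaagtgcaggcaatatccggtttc
Isg15, chr4:156200825-156200946, minus strand: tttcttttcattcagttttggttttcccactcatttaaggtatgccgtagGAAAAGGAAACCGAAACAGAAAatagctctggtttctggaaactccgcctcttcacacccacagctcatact
Ifi203, chr1:173942493-173942577, minus strand, within the Ifi203 gene model but in no exon: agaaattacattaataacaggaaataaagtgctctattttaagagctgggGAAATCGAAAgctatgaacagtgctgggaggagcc
Bst2, chr8:71537537-71537652, minus strand: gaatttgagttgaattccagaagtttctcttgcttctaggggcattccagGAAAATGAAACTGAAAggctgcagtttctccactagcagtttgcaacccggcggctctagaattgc
The Isg15 stretch holds 3 overlapping copies of the motif and the Bst2 stretch 2, so their capitals run longer.

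Across the members, photoconverted cells more often had the gene than depth-matched cells, by a small margin that depended on single cells. The median difference over 35 members was 7.5 percentage points (range -17.5 to 47.5). The share was higher for 22 members, lower for 9 and equal for 4. Over the 5833 genes detected in at least 5 kept cells, the median difference was 2.5 points, with 52.9% higher, 40.6% lower and 6.5% equal. Of the 35 members, 28 were among these 5833 genes and 7 were rarer: over the 9716 genes detected in at least 1 cell, 43.9% were higher, 44.1% lower and 12.1% equal. A difference of 25 points, or 2 of 8 cells, was taken as the size for a call. By that rule 2 members were higher (Zbp1 and Irf8) and 0 lower, where 9.74% of the 5833 genes were higher and 3.89% lower. Over the 9716 genes these shares were 6.56% and 2.34%. With all 8 photoconverted cells and 5 nearest cells each, the 2 calls among 35 members are thus no more than the share over all genes. The count was not stable, with 3 to 6 members higher by 25 points when a photoconverted cell was left out. When each cell was drawn down to 1000 gene reads, the expected share of cells with at least 1 read was compared. On this other scale the median difference of the members was 0.324 points, with 19 higher and 16 lower. The same median was -0.257 over the 9716 genes and -0.586 over the 5833. Without the photoconverted cell numbered 1 below, the median difference was 0, with 13 members higher, 15 lower and 7 equal. Without cell 6 or without cell 7 it was 2.86 points.

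**Figure D1:**
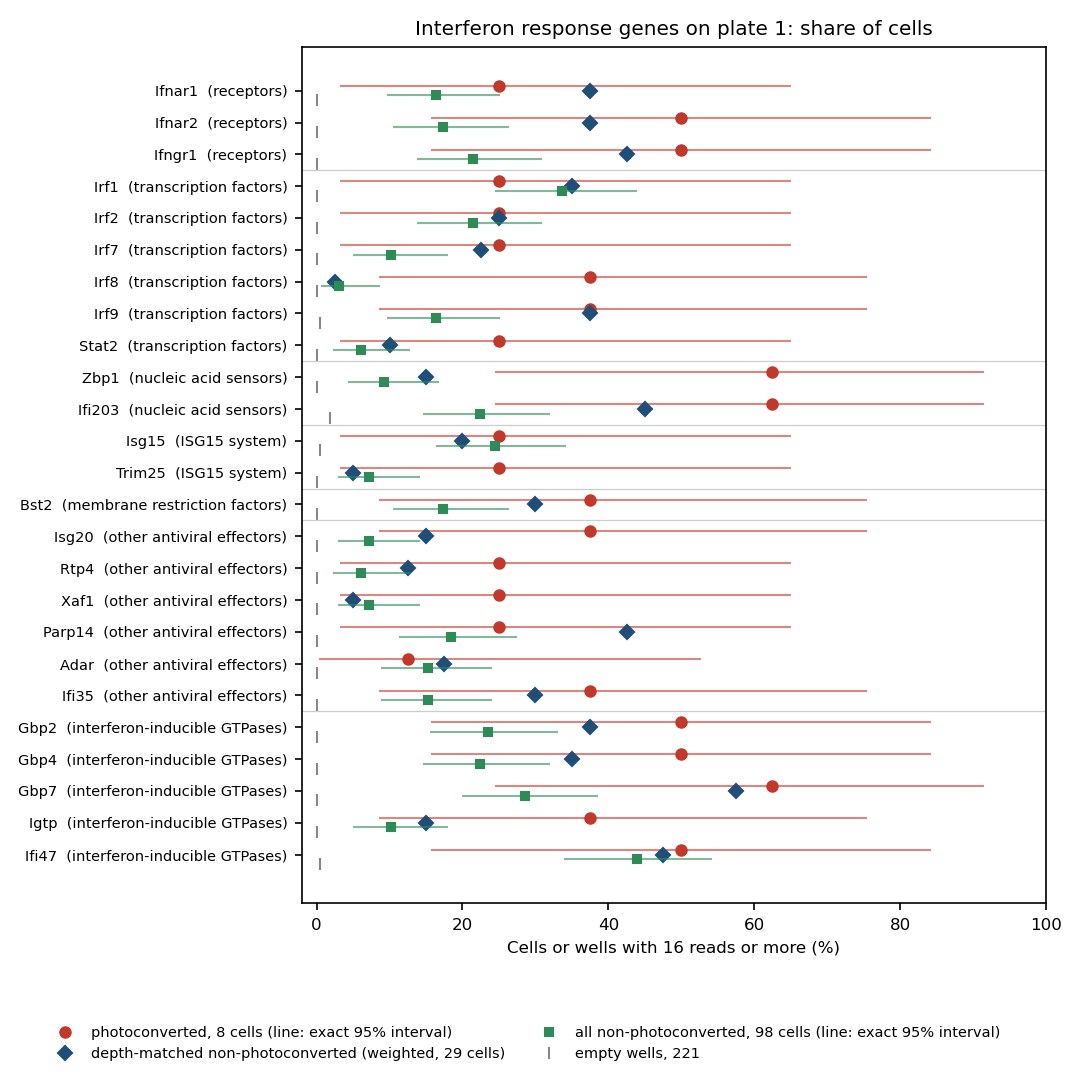
Share of cells (percent, x axis) with 16 reads or more of the 25 members given in full (y axis, with their role): circles are the 8 photoconverted cells and squares the 98 non-photoconverted cells, with exact 95% intervals as lines, diamonds the depth-matched cells and ticks the 221 empty wells. The intervals of the 8 photoconverted cells are wide, and Zbp1 and Irf8 are the members farthest to the right of their depth-matched value.

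Each receptor was detected in a minority of non-photoconverted cells and in 2 or 4 of the 8 photoconverted cells. Ifngr1, the ligand-binding chain for interferon gamma, was detected in 21 of 98 non-photoconverted cells (21.4%, interval 13.8 to 30.9%). In the photoconverted cells 1 to 8 it had 1, 2, 210, 175, 31, 31, 1 and 0 reads. That makes 4 of 8 cells, beside 42.5% of depth-matched cells. Ifnar2 was also detected in 4 of 8, beside 37.5%, with 402 reads in cell 4, 88 in cell 7 and 19 each in cells 1 and 6. Ifnar1 was seen in 2 of 8 cells, beside 37.5%, so its difference was -12.5 points. No receptor reached the 25 points. In mean CPM each receptor was lower in photoconverted than in depth-matched cells: 43.2 and 51.1 for Ifnar1, 48.9 and 77.4 for Ifnar2, 84.1 and 213 for Ifngr1.

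Among the transcription factors, Irf1, which interferon gamma induces, was the most widely detected in non-photoconverted cells. It was found in 33 of 98 non-photoconverted cells (33.7%, interval 24.4 to 43.9%), with 0 to 755 reads and a median of 0.5. Photoconverted cells had 93 reads in cell 3 and 228 in cell 7, and 0 in the other 6. The share was 10 points below the 35% of depth-matched cells, and the mean level was 47.5 CPM beside 251 CPM. Irf2, which competes with IRF1 for its sites, was detected in 2 of 8 photoconverted, 21.4% of non-photoconverted and 25% of depth-matched cells.

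Irf8 is known as a factor of myeloid and plasmacytoid dendritic cells and of some lymphocytes. Its reads in photoconverted cells 1 to 8 were 0, 0, 85, 193, 0, 0, 141 and 0. Detection was thus in 3 of 8 (37.5%, interval 8.52 to 75.5%), beside 3 of 98 non-photoconverted cells (3.06%, interval 0.636 to 8.69%) and 2.5% of depth-matched cells. Against all non-photoconverted cells the level did not follow the share, while against depth-matched cells it did. The 3 non-photoconverted cells held 552 to 860 reads, more than any photoconverted cell. Mean Irf8 was 49.8 CPM in photoconverted, 17.5 in depth-matched and 80.7 in all non-photoconverted cells. Drawn down to 1000 reads the difference of 35 points became 3.38 points.

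The parts of the complex that binds the response element were sparse. Irf9 was detected in 3 of 8 photoconverted cells, with 60 reads in cell 1, 17 in cell 7 and 100 in cell 8, which equals the 37.5% of depth-matched cells. Stat2 was detected in cells 6 and 7, with 93 and 106 reads, beside 6.12% of non-photoconverted and 10% of depth-matched cells. Irf7, which amplifies type I interferon production, had 103 reads in cell 1 and 359 in cell 4, beside 10.2% and 22.5% of cells. None of these differences reached 25 points. The 6 transcription factors had a median difference of 1.25 points.

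Zbp1, a sensor of left-handed nucleic acid that can start inflammatory cell death, had the largest difference of the 35 members. The photoconverted cells 1 to 8 had 57, 208, 626, 11, 0, 2, 606 and 147 reads. It was detected in 5 of 8 (62.5%, interval 24.5 to 91.5%), beside 9 of 98 non-photoconverted cells (9.18%, interval 4.29 to 16.7%) and 15% of depth-matched cells. The read ranges overlapped, since the highest non-photoconverted cell had 781 reads, but the median non-photoconverted cell had 0. Mean Zbp1 was 614 CPM in photoconverted, 69.2 in depth-matched and 74.8 in all non-photoconverted cells. After drawing down to 1000 reads, 31.8% of photoconverted and 5.25% of depth-matched cells would be expected to show a read. Leaving out each photoconverted cell in turn gave differences of 40 to 60 points around the 47.5 found with all 8, and Zbp1 was detected in 0 of 221 empty wells.

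The other sensors did not share that pattern. Ifi203, of the family that binds DNA, was detected in 5 of 8 photoconverted cells and 45% of depth-matched cells, a difference of 17.5 points. Its mean level ran the other way, with 129 CPM in photoconverted and 240 in depth-matched cells, and it reached 16 reads in 4 empty wells. Ifih1, which encodes the RNA sensor MDA5, was detected in 0 of 8 photoconverted and 4 of 98 non-photoconverted cells.

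ISG15 is a ubiquitin-like protein that interferon-treated cells attach to other proteins. Isg15 had 541, 2, 0, 0, 0, 0, 67 and 0 reads in photoconverted cells 1 to 8, so 2 of 8 cells stood out and 5 had none. It was detected in 24 of 98 non-photoconverted cells (24.5%, interval 16.4 to 34.2%), up to 468 reads, and in 20% of depth-matched cells. The difference of 5 points turned to -8.57 without cell 1, and likewise without cell 7. Usp18, which removes ISG15 and damps receptor signalling, was detected with 56 reads in cell 1 alone among the photoconverted cells. Trim25, a ligase for ISG15 and ubiquitin, had 292 reads in cell 1 and 316 in cell 3, beside 5% of depth-matched cells. The IFIT genes, whose proteins bind viral RNA, reached 16 reads in a single photoconverted cell: cell 1 had 254 reads of Ifit1 and 109 of Ifit2. Ifit1 was detected in 6 of 98 non-photoconverted cells and Ifit2 in 0 of 98, where 3 counts of the total is a share of 3.06%.

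Of the membrane proteins that block virus entry or release, Ifitm1, Ifitm2 and Ifitm3 were detected in 0 of 8 photoconverted and 1, 2 and 5 of 98 non-photoconverted cells. Bst2, which tethers budding virus, was detected in 3 of 8 cells, beside 17.3% of non-photoconverted and 30% of depth-matched cells. Among the other antiviral genes, Isg20, an RNA exonuclease, was detected in 3 of 8 cells with 244 reads in cell 1, 104 in cell 3 and 37 in cell 8. The depth-matched share of Isg20 was 15%, and mean levels were 155 and 31.2 CPM. Xaf1, linked to cell death, was detected in cells 1 and 4 with 324 and 86 reads, beside 5% of depth-matched cells. Rtp4 had 274 reads in cell 1 and 45 in cell 6, beside 12.5%.

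Of the remaining antiviral genes, Parp14 and Adar had a lower share in photoconverted than in depth-matched cells, and Ifi35 a lower level. Parp14, an ADP-ribosyltransferase, had 292 reads in cell 6 and 264 in cell 7 and 0 in the other 6, so its share of 25% was 17.5 points below the depth-matched 42.5%, while its mean level was higher (103 and 59.5 CPM). Adar, which edits adenosine to inosine in double-stranded RNA, was detected in cell 1 alone, beside 17.5% of depth-matched cells. Ifi35 was detected in 3 of 8 cells, beside 30%, but at a mean of 40.0 CPM, beside 210 CPM. Ifi44 and Oasl2 were detected in 0 of 8 photoconverted cells, and Ifi27l2a in 0 of the 106 cells, where 3 counts of the total is a share of 2.83%. All 10 members that were detected in fewer than 2 photoconverted cells and in under 10% of non-photoconverted cells stayed at or below 6 of 98 non-photoconverted cells (6.12%).

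The interferon-inducible GTPases had the highest median share of non-photoconverted cells of any role (23.5%), and all 5 had a higher share in photoconverted than in depth-matched cells, by a median of 12.5 points, where 52.9% of the 5833 genes were higher. None of the 5 reached 25 points. Without cell 1 the differences of Gbp2, Gbp4, Gbp7, Igtp and Ifi47 were 2.86, 8.57, 0, 14.3 and -8.57 points, so 3 of 5 were higher. Drawn down to 1000 reads, the difference of Gbp7 was -2.70 points. Ifi47 was the most widely detected of all members, in 43 of 98 non-photoconverted cells (43.9%, interval 33.9 to 54.3%), with 0 to 1318 reads and a median of 7. Its photoconverted cells 1 to 8 had 1144, 596, 224, 0, 0, 0, 1556 and 0 reads. They therefore split into 4 cells with 224 to 1556 reads and 4 with none. The share of 50% was 2.5 points above the depth-matched 47.5%, and -8.57 points from it without cell 1, and likewise without cell 7. Mean Ifi47 was 657 CPM in photoconverted, 316 in depth-matched and 698 in all non-photoconverted cells.

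Igtp, a GTPase of the same immunity-related family, had 366, 0, 54, 0, 0, 10, 356 and 0 reads in photoconverted cells 1 to 8. It was detected in 3 of 8, beside 15% of depth-matched cells, 22.5 points higher. Among the guanylate-binding proteins, Gbp4 had 962, 138, 0, 0, 0, 110, 608 and 1 reads, which is 4 of 8 cells beside 35%. Gbp2 had 573, 1, 250, 44, 0, 0, 466 and 3 reads, also 4 of 8, beside 37.5%. For Igtp, Gbp2 and Gbp4 the highest counts were in cells 1 and 7. Gbp7 had 463, 424, 0, 65, 12, 97, 181 and 0 reads, 5 of 8 cells beside 57.5%, and its mean level was lower in photoconverted (286 CPM) than in depth-matched cells (385 CPM). Gbp4 overlaps Gbp8 and Gbp9, and Igtp overlaps Irgm2, in the GENCODE annotation; 18 of the 35 members overlap some other annotated gene. How reads in overlaps were assigned is not given in the sources used here, so these values may include a neighbour's reads.

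The number of members differed widely between the photoconverted cells. Cells 1 to 8 had 20, 5, 10, 12, 3, 8, 16 and 3 of the 35 members. The mean over the 5 nearest non-photoconverted cells was 7.8, 8.4, 8.6, 10, 5.8, 7.4, 7.8 and 1.2. The count was above this mean in 6 of the 8 cells, and above each of the 5 nearest cells in 2. Cell 1 held 26.0% of the 77 detections in photoconverted cells. Cells 1 and 7 together held 46.8% of them, and 31.7% of all genes detected in the photoconverted cells. Both were picked for having the most members, and that choice alone raises their share of the detections. Cell 4, the deepest with 3646 genes detected, had 12 members.

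**Figure D2:**
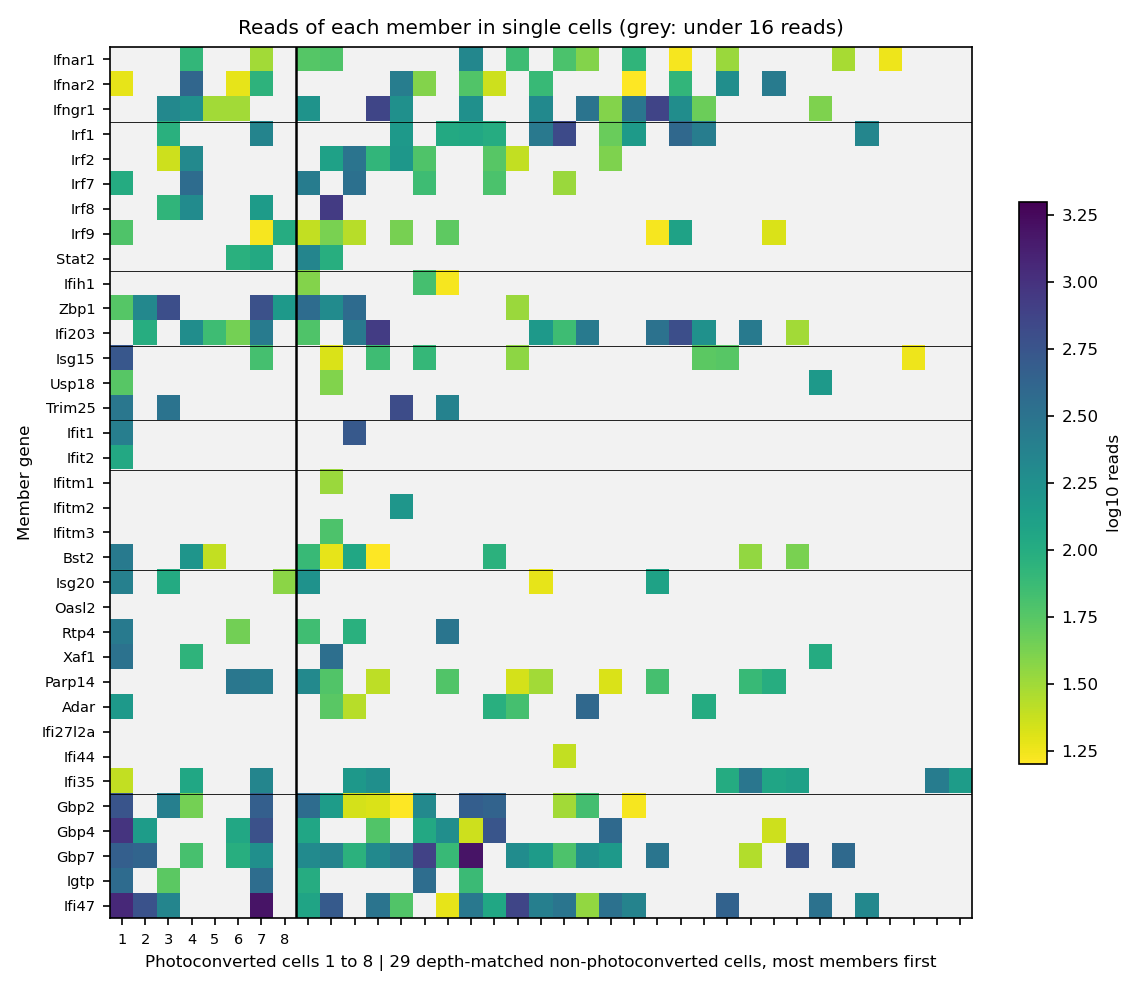
Reads of each member (rows, by role; colour is log10 reads, grey is under 16 reads) in the 8 photoconverted cells and the 29 depth-matched cells, those with most members first (columns). Cell 1 is coloured in 20 of 35 rows, across the roles from receptor to GTPase, and cell 7 in 16.

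Cell 1 had more members than any of its 5 nearest cells, which had 5 to 17. It held 57.1% of the members, and 33.6% of the 5833 genes. Its 20 members were Ifnar2, Irf7, Irf9, Zbp1, Isg15, Usp18, Trim25, Ifit1, Ifit2, Bst2, Isg20, Rtp4, Xaf1, Adar, Ifi35, Gbp2, Gbp4, Gbp7, Igtp and Ifi47. Its members summed to 10202 CPM, beside 627 to 5324 CPM in the other 7 photoconverted cells. Summed over the members, the mean was 3902 CPM in photoconverted, 2787 in depth-matched and 3523 in all non-photoconverted cells. The log2 ratio of the first 2 was 0.49, and 0.055 without cell 1. Cell 7 was closer to its share of genes than cell 1, with 45.7% of members and 39.0% of genes. Cell 4 was below its share of genes, with 34.3% and 55.2%. These shares of members are over all 35, of which 28 are among the 5833 genes and the others are rarer. Cell 1 had 7 of the 8 ILC2 markers and 1 of the 18 markers of other cell types, Cd3g with 89 reads; the part of other cell types in its counts was not tested.

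Cells with 10 or more members were also present among the non-photoconverted cells. These had 0 to 18 members (median 3.5, mean 4.52), and 9 of 98 (9.18%, interval 4.29 to 16.7%) had 10 or more. The corresponding count was 4 of 8 photoconverted cells (50%, interval 15.7 to 84.3%), beside 17.5% of depth-matched cells. These counts rise with depth and are not counts of cells like cell 1. Photoconverted cells 3 and 4 are among them, with 28.6% and 34.3% of the members beside 31.4% and 55.2% of the 5833 genes. The mean was 9.62 members in photoconverted and 7.12 in depth-matched cells. Of the empty wells, 214 of 221 had 0 members and the other 7 had 1.

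**Figure D3:**
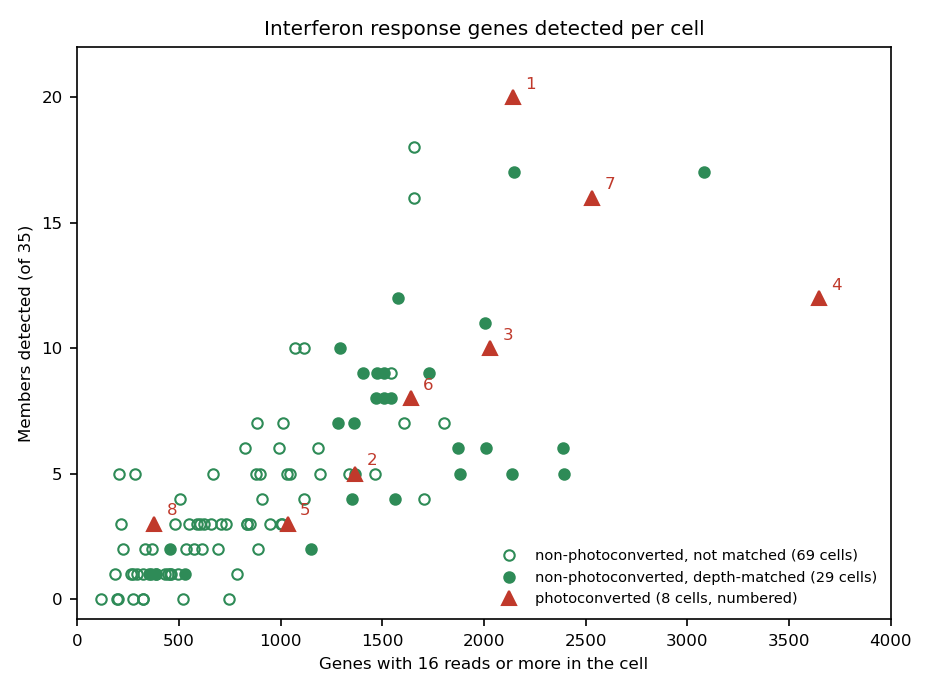
Number of members detected (y axis) against the number of genes detected (x axis) in each of the 106 cells: triangles are the photoconverted cells by number, filled circles the 29 depth-matched cells and open circles the other 69 non-photoconverted cells. The count climbs with depth in the 98 non-photoconverted cells, and photoconverted cell 1 (20 members, 2143 genes) and a non-photoconverted cell (18 members, 1656 genes) lie highest, near 2 non-photoconverted cells with 17 members.

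The non-photoconverted cell with most members had 18 with 1656 genes detected, where its 5 nearest non-photoconverted cells averaged 6.2. It held 51.4% of the members, and 26.1% of the 5833 genes, and its members summed to 11375 CPM. Its members were Irf1, Irf2, Irf9, Zbp1, Ifi203, Isg15, Ifit1, Bst2, Isg20, Rtp4, Xaf1, Parp14, Ifi35, Gbp2, Gbp4, Gbp7, Igtp and Ifi47. It had none of the 18 markers of other cell types at 16 reads, and 5 of 8 ILC2 markers. The next 3 cells had 17, 17 and 16 members with 2148, 3082 and 1656 genes detected, and each had 2 of the 18 other markers. Over the 98 non-photoconverted cells, the number of members and the number of genes detected had a Spearman correlation of 0.812 and a Pearson correlation of 0.749; both counts come from the same library and share its depth. The median non-photoconverted cell had a share of members 2.60 points below its share of the 5833 genes. By this measure 2 of the 98 were 15 points or more above it, and 5 were 15 points or more below. The 2 shares are over unlike sets. Of the 35 members, 28 are among the 5833 genes, and the others were detected in fewer than 5 cells, which tends to lower the share of members. These counts therefore cannot show whether members ran above or below genes of like detection. The 5 cells with most members held 18.1% of all 443 detections, and 10.7% of all genes detected. They were picked by their number of members, which raises the first of these shares.

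Pairs of members met most often among the GTPases and Irf1, where Ifi47, Irf1 and Gbp7 are also the most widely detected members. In the non-photoconverted cells, Irf1 and Ifi47 were detected together in 21 cells, of 33 and 43 with each. Gbp2 and Ifi47 shared 18 cells, which is 78.3% of the 23 cells with Gbp2, where 43.9% of all 98 cells had Ifi47. The cells with both genes were deep, with medians of 1335 (Irf1 and Ifi47) and 1527 (Gbp2 and Ifi47) genes detected. Over all 98 cells the median was 863.5. Whether these pairs met more often than depth alone would give was not tested. Usp18 was found with Isg15 in 5 of its 6 cells, while Ifit1 was found with Isg15 in 3 of its 6. The 9 non-photoconverted cells with Zbp1 had a median of 9 other members (6 to 17), and the 89 without it had 3. Their depths differed too, with medians of 1576 and 786 genes detected.

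Leaving out each photoconverted cell in turn showed how far single cells set the result. The median difference over the members was 0 without cell 1 and 2.86 points without cell 6 or cell 7. It lay between 5.71 and 8.57 points without any 1 of the other cells. The number of members higher by 25 points ran from 3 to 6 of 35. With all 8 photoconverted cells, 9.74% of the 5833 genes were that much higher. The range over all genes with each cell left out is given in the section on processing. Zbp1 (40 to 60 points) and Irf8 (25.7 to 40 points) were among the members counted every time. They started from 5 and 3 of 8 cells, beside 15% and 2.5% of depth-matched cells. Leaving out 1 cell could not bring either below 25 points, so this is no support for a difference. Without cell 1, Ifit1 went from 10 to -2.86 points, Usp18 from 7.5 to -5.71, Ifit2 from 12.5 to 0 and Adar from -5 to -20. Gbp2 went from 12.5 to 2.86 points.

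**Figure D4:**
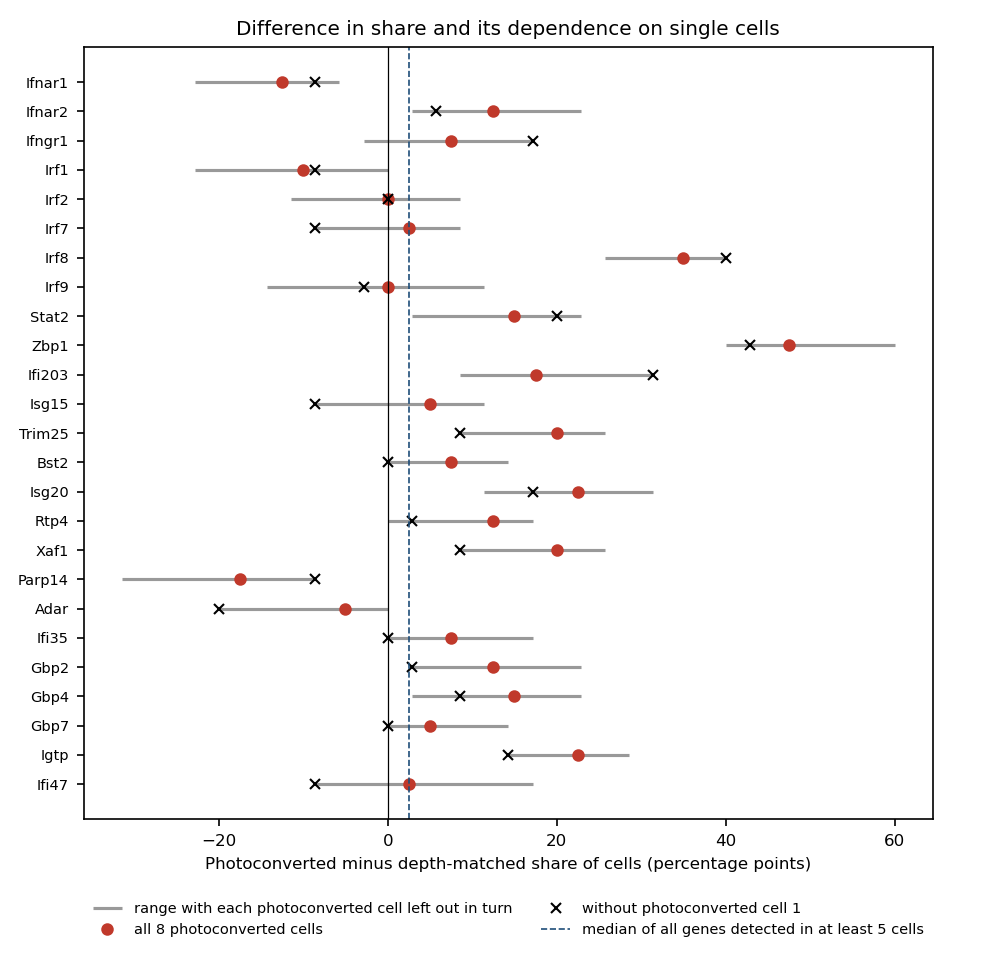
Difference in share between photoconverted and depth-matched cells (percentage points, x axis) for the 25 members given in full (y axis): circles use all 8 photoconverted cells, grey lines span the values with each left out in turn, crosses leave out cell 1, and the dashed line is the median of the 5833 genes (2.5 points). Zbp1 stays between 40 and 60 points, and Isg15 and Ifi47 fall on both sides of 0.

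Other genes of the interferon pathway gave a similar mixture. Of 102 listed (ligands, kinases, other receptors, antigen presentation and further induced genes), 81 had a row. Their median difference was 0 points, with 39 higher, 30 lower and 12 equal. By the 25-point rule 8 were higher, among them Lgals3bp by 37.5 points, Tap1, which carries peptides for antigen presentation, by 35, Sp100, Sp110 and Slfn5 by 30 each, Lgals9 by 27.5, and Gbp9 by 25. Irf3 and Trim34a were lower by 30 points and Dtx3l by 27.5, so 3 were lower. As shares of the 81 these are 9.88% and 3.70%, beside 6.56% and 2.34% of the 9716 genes detected in at least 1 cell. All 11 are among the 57 listed genes detected in at least 5 cells, of which they are 14.0% and 5.26%, beside the 9.74% and 3.89% of the 5833 genes. The list's most widely detected genes in non-photoconverted cells were B2m (96.9%), Shisa5 (82.7%), Psmb8 (59.2%), Samhd1 (58.2%), Jak1 (56.1%) and Psme1 (49.0%). In the same order they differed by 2.5, 2.5, -22.5, 12.5, 7.5 and 10 points. Cxcl10, a chemokine that interferon gamma induces, was detected in 0 of 8 photoconverted and 7.14% of non-photoconverted cells.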

How the data were processed

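Plate 1 of a single-cell 3′ library series of pancreatic ILC2 (52614294 reads) was analysed; 4 plates were sequenced. The deposited values are raw read counts per gene and well, not collapsed to molecules, which leaves amplification in them; spike-in rows were left out of gene totals. The deposited index-sort table gives each well's colour call and fluorescence intensity. The submitters' processing notes name STAR, STARsolo, edgeR and the mm10 build, with no version or role, and the strand used for counting is not given in the sources used here. Colours were taken from the index-sort table. Drawing down to 1000 reads used the exact hypergeometric expectation. Matching weighted the 5 nearest cells equally (29 cells, effective number 22.9). No test between colours was run, since each is 1 sample; nothing says whether the wells came from several animals.

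Members are given in full where 2 or more photoconverted cells, or at least 10% of those not photoconverted, had the gene, which holds for 25 of 35. Of the other pathway genes, the 6 with the highest share in non-photoconverted cells and those that differ by 25 points are named, with Cxcl10 added after its values were seen; 1 of these genes is not reported here. Promoters are shown for those of the first 6 members in full that hold the motif and overlap no exon. Members and lists were chosen with earlier results of these data known. Scripts used Python 3.11.15, pandas 2.3.3, numpy 2.4.6, scipy 1.17.1 and matplotlib 3.10.9. The comparison of shares was tested on differences planted in the real non-photoconverted cells of the same plate. Drawing down was checked against random draws from such a cell. Other detection levels, matching, filters and omitted cells were tried as alternatives.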

Additional observations from a re-analysis of the deposited data

How the results depend on the processing

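All genes here are those detected in at least 5 kept cells. With all 8 photoconverted cells and 5 depth-matched cells each, the median difference was 7.5 points, 2 members were higher and 0 lower by 25 points, 13 cells had 10 or more members, the mean number of members differed by 2.5 and the log2 ratio of mean summed member CPM was 0.49. Counting a gene at 1, 4 or 64 reads gave 40, 24 and 6 cells with 10 or more members. At 1 read 6 members were higher and 3 lower by 25 points, at 4 reads 4 and 1, and at 64 reads the median over all genes was 0 points. With 3 nearest cells 7 members were higher and the median over all genes was 0. With 10 nearest cells the log2 ratio was 0.27, and matching on gene reads gave 5 members higher. Against all non-photoconverted cells, with no matching, the median was 14.8 points, 10 members were higher, the mean differed by 5.10, the log2 ratio was 0.15, 23.0% of all genes were higher by 25 points and their median was 11.7. Drawn down to 1000 reads, the median was 0.324 points with 1 member higher, the mean differed by 0.763, and over all genes 0.274% were higher and the median was -0.586, the opposite sign. Without the cell filter 1 member was higher, the mean differed by 1.52, the log2 ratio was 0.056 and 2.51% of all genes were higher. Without the 2 photoconverted cells lowest in red fluorescence 4 members were higher and 1 lower, and the log2 ratio was 0.22. Over all genes seen in at least 1 cell the median was 0. Leaving out each photoconverted cell gave a median of 0 to 8.57 points, 3 to 6 members higher, 0 to 1 lower, a mean difference of 1.11 to 3.34, a log2 ratio of 0.055 to 0.68, 7.85% to 12.5% of all genes higher, a median over all genes of 0 to 2.86 and 12 to 13 cells with 10 or more members. With all 8 photoconverted cells, 9.74% of all genes were higher and 3.89% lower by 25 points. Where a setting has no share of all genes beside its count of members, that count cannot be read as above or below such a share. The cause of these shifts was not tested. Of the 25 members given in full, 8 were above 0 at all 20 settings and 10 changed sign at 1 setting or more. Among these 8, Irf8, Stat2, Zbp1, Trim25, Isg20 and Xaf1 were given in full only because 2 or more photoconverted cells had them. That rule favours values above 0, so their steady sign is no support for a difference. No such count is given over all genes. Zbp1 stayed at 25 points or more at all 20 (26.6 to 60). Irf8 did so at 18 of 20, with 23.3 points when no cell filter was applied and 3.38 when drawn down. The settings that leave out 1 photoconverted cell could not take either gene below 25 points. No paired analysis was possible because both colours come from plate 1 alone, so there is 1 pair and no replicate of it. With 8 photoconverted cells a single cell is 12.5 points, which limits every share given.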

Other observations

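Wells that failed the cell filter held few of these genes. The 4 photoconverted cells left out had 0 members each, and of the 53 non-photoconverted cells left out 45 had 0 and none had more than 3.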
